A study of Homo sapiens with 9 samples.

Results

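Macrophages that had shared a dish with breast tumour cells and were labelled as distal to them were compared here with macrophages that had never met a tumour cell. The comparison covers 6 of the 9 libraries of the series, 3 labelled distal and 3 labelled monocultured, and all 15427 of 61180 annotated gene names that passed a filter on low counts. By their labels, all libraries are of macrophages made from THP-1, a human monocytic leukaemia line. The phorbol ester PMA was used for this, at 250 nM over 48 h, so the monocultured controls carry that treatment as well. Distal macrophages had then spent 24 h with HER2+ MDA-MB-231, a line of human breast cancer cells that here carries the receptor ERBB2 (HER2). The design text gives 20 macrophages for each tumour cell and the growth protocol 40. In those cocultures the fusion ZHER-βGal (2 µg/mL, 30 min), a HER2-binding protein joined to β-galactosidase, was placed on the tumour cells. There it turned a caged biotin probe (10 min) into a form that reacts with nearby cells. After trypsin and fluorescent streptavidin (30 min), cells were sorted, and the distal label is read here as the low-biotin gate. Whether monocultured macrophages were also labelled, trypsinised and sorted is not stated in the labels, so coculture and handling cannot be told apart. The model is 1 leukaemia line, nothing in the labels says that replicates came from separate cultures, and p-values therefore measure only the spread between these libraries, which may be technical.

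As background, macrophages sense microbial and host signals through pattern, cytokine and scavenger receptors. The NF-kappaB family, held inactive in the cytoplasm by IkappaB proteins, moves to the nucleus on such signals and drives cytokine, chemokine and feedback genes. In the resting or lipid-handling state, the nuclear receptors LXRα (NR1H3) and PPARγ (PPARG) drive genes of lipid uptake, storage and efflux, and lysosomes degrade what the cell takes up. Macrophages in tumours are known to show features of both states.

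Totals were 13581994, 13897386 and 15564808 counted read pairs in distal replicates 1 to 3 and 14777216, 14287535 and 15870722 in monocultured ones, and mitochondrial genes took 3.64% to 4.51% and 3.31% to 3.80% of them. Levels below are CPM, counts relative to the size of the library after TMM scaling, always in the order of replicates 1, 2 and 3. Fold changes are log2 values of distal over monocultured, fitted with edgeR, with their standard error (SE), and a gene is said to have risen or fallen where its Benjamini-Hochberg adjusted p over all genes tested was under 0.05. A rise or fall given by a number alone is a log2 fold change. Distal replicate 2 and monocultured replicate 1 stood apart from their groups in a trend with GC content: the Spearman correlation of a gene's deviation from its group mean with its GC content was -0.57 and 0.51 in them, against 0.42 and 0.38 in the other distal libraries and -0.16 and -0.41 in the other monocultured ones. This correlation is across genes, which are not independent replicates. Deviations from a group mean cancel within the group, so opposite signs between its libraries are largely built in. Proximal replicates 1 to 3, also in the fit, were at -0.36, -0.48 and 0.60. Counts that distal replicate 2 or monocultured replicate 1 alone decides are named where they occur, as counts or through the genes concerned. Changes on leaving out both together are mostly given at the end. Where a GC trend is said to be removed, it was fitted to each library's deviation from the gene's mean over all 9 libraries. Differences between the groups that follow GC content are then removed too.

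The label of the cells was checked first. Of 15 macrophage markers 13 were measured, and 1 rose, 6 fell and 6 were not called (2 rose and 8 fell with each library's GC trend removed). Over all genes tested, 20.7% rose and 21.7% fell. CD14, a co-receptor for bacterial lipopolysaccharide, was at 112, 118 and 128 CPM in distal and 28.6, 27.0 and 22.1 CPM in monocultured libraries (log2 fold change 2.21 ± 0.11 SE, adjusted p = 9.86e-10). CSF1R, the receptor for the macrophage growth factor CSF1, was at 1307, 1168 and 1382 CPM in distal and 2226, 2219 and 2065 CPM in monocultured libraries (log2 fold change -0.76 ± 0.08 SE, adjusted p = 3.74e-06). Every distal library thus lay above every monocultured one for CD14 and below every one for CSF1R, and both genes were present throughout. LYZ, lysozyme, fell by 1.65. The summed level of the macrophage list was 9033, 8316 and 9223 CPM in distal and 12274, 11689 and 10758 CPM in monocultured libraries, a log2 ratio of -0.39 (two-sided exact permutation test, p = 0.1, the smallest that 3 against 3 allows). In bulk samples, fewer cells of a type and less RNA per cell cannot be told apart. CD68 and AIF1 did not pass the filter, with 38 and 34 counted pairs over all 9 libraries. Most exonic bases of CD68 overlap other genes and AIF1 lies on several sequences of the annotation, where pairs were not counted, so these low counts say nothing of their levels.

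ERBB2 (chromosome 17, 39687914 to 39730426, plus strand, GRCh38) marks the other cell type of the coculture. It was at 43.2, 30.9 and 45.3 CPM in distal and 1.80, 1.64 and 1.13 CPM in monocultured libraries, and at 19.1, 15.1 and 17.6 CPM in the proximal libraries. Each distal library was above each proximal one, and those above the monocultured ones (log2 fold change 4.71 ± 0.21 SE, adjusted p = 5.10e-10 for distal against monocultured). Of 30 further markers of MDA-MB-231 cells 23 were measured, and 9 rose, 2 fell and 12 were not called. The shares over all genes were 20.7% rising and 21.7% falling. IGFBP3, a binder of insulin-like growth factors, was at 502, 531 and 541 CPM in distal and 94.5, 96.2 and 95.3 CPM in monocultured libraries (log2 fold change 2.46 ± 0.08 SE, adjusted p = 2.43e-11). EGFR rose by 2.90, TEAD1 by 1.31 and LAMB3 by 1.66. COL4A1 and COL4A2 fell by 1.85 and 2.04. NT5E and LAMC1, also among the 4 markers with the most counts, overlapped between the groups. NT5E (CD73) was at 639, 727 and 647 CPM in distal and 610.1, 689.6 and 668 CPM in monocultured libraries, and LAMC1, a laminin chain, at 269, 254 and 255 CPM in distal and 265, 266 and 258 CPM in monocultured libraries. The summed marker level was 1652, 1743 and 1670 CPM in distal and 1097, 1183 and 1143 CPM in monocultured libraries (log2 ratio 0.57, two-sided exact permutation test, p = 0.1). In the proximal libraries this sum was 2494, 2614 and 2272 CPM, above every distal library, the reverse of the order of ERBB2. Most of that sum came from genes that monocultured THP-1 macrophages transcribe too: the sum of the 11 markers that were below 1 CPM in monoculture was 5.42, 2.77 and 4.08 CPM in distal and 3.33, 2.92 and 2.02 CPM in monocultured libraries, which overlap. The cut at 1 CPM was set on these same values, and the overlap depends on it. TFPI2, just above it in monoculture, was at 4.80, 5.74 and 5.72 CPM in distal and 1.04, 1.21 and 0.88 CPM in monocultured libraries. TM4SF1 and S100A2, also just above it, had lower means in distal libraries (0.78 and 0.82 against 1.18 and 1.31 CPM). CCN2, among the 11, was at 1.37, 0.67 and 1.03 CPM in distal and 0.14, 0.36 and 0.13 CPM in monocultured libraries. The keratins KRT7 and KRT8 were not called, and EPCAM, DKK1 and KRT18 had 0 counts in all 6 libraries, although KRT18 has many pseudogenes and pairs mapping to several places were left out. ERBB2 and the 9 markers above thus differ between the groups together with the changes below, and their part in those changes was not tested.

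**Figure D1:**
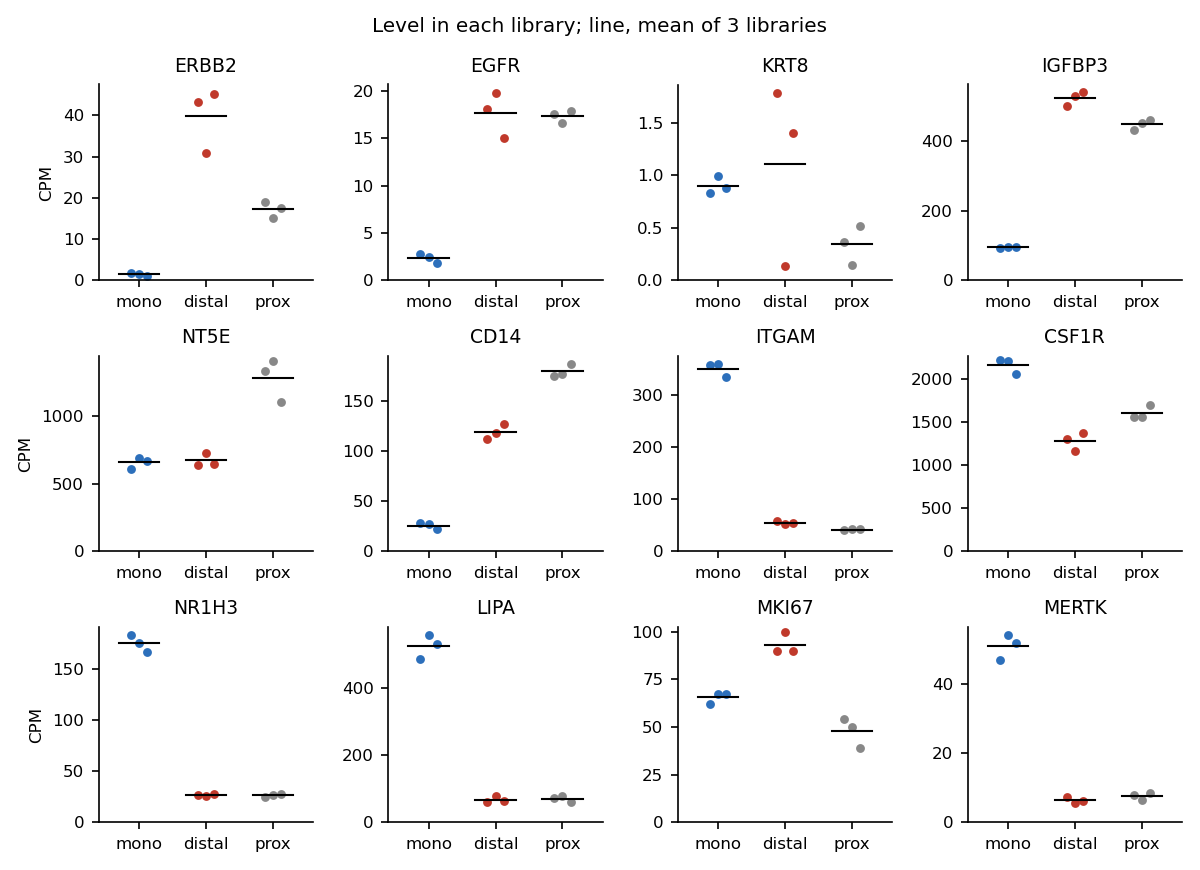
Level of 12 genes in each library of the monocultured (blue), distal (red) and proximal (grey) groups in CPM, with the mean of 3 libraries as a line. ERBB2, EGFR and IGFBP3 were higher in distal than in monocultured libraries, KRT8 and NT5E overlapped between them, and ITGAM, CSF1R, NR1H3 and LIPA were lower in every distal library.

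Over all genes, 3201 rose and 3344 fell, 20.7% and 21.7% of those tested (42.4% in either direction), and 7704 had an unadjusted p under 0.05. Of these calls 1368 were at least 2-fold higher (8.87% of genes tested) and 1159 at least 2-fold lower (7.51%), while 444 and 375 passed 4-fold. For 8346 genes the libraries of one group all lay above those of the other (54.1% of those tested), 6413 of them called. The median log2 fold change was 0.01. Against a 1.5-fold change rather than no change, edgeR's glmTreat called 1193 higher and 1198 lower. Counts of list members above and below are to be read against these shares: with 42.4% of all genes called, a few calls in a list are no result about it. Several genes belong to more than one list, and genes of a list named for a function can have other roles.

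**Figure D2:**
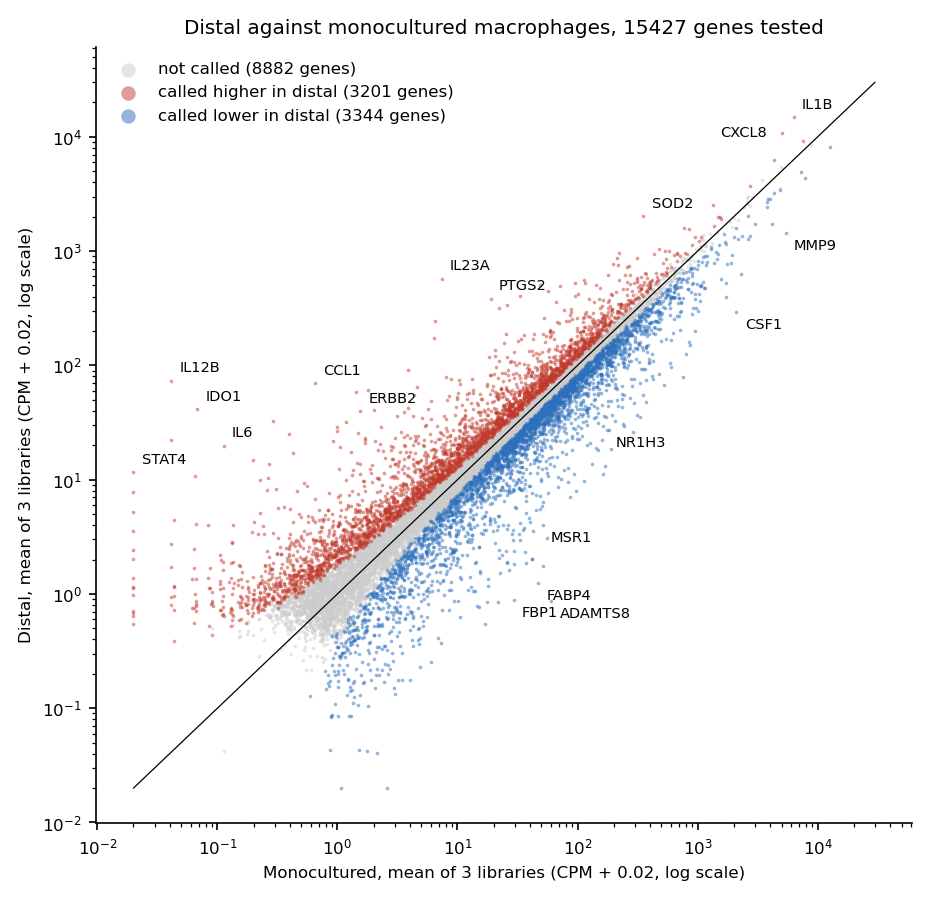
Mean level of each of 15427 genes in 3 monocultured (x axis) and 3 distal libraries (y axis), in CPM plus 0.02 on log scales, with genes called higher in red and lower in blue and equality as a line. The 3201 risen genes lie above the line and the 3344 fallen ones below it, at low as at high levels.

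Secreted signals were among the largest rises. IL12B (chromosome 5, 159314780 to 159330487, minus strand, GRCh38), which encodes the p40 chain shared by the cytokines IL-12 and IL-23, was at 77.8, 75.1 and 68.1 CPM in distal and 0, 0 and 0.0630 CPM in monocultured libraries. With 1 pair counted in the 3 monocultured libraries together, the ratio of CPM was 3259 (95% exact interval 584 to 128750). Such intervals cover counting error only. IL23A, the partner chain of IL-23, was at 618, 497 and 603 CPM in distal and 8.95, 6.76 and 6.42 CPM in monocultured libraries (log2 fold change 6.28 ± 0.14 SE, adjusted p = 3.18e-12), and EBI3, a subunit of IL-27 and IL-35, at 428, 366 and 424 CPM in distal and 36.5, 32.1 and 31.4 CPM in monocultured libraries (log2 fold change 3.61 ± 0.11 SE, adjusted p = 1.56e-11). All 3 distal libraries of each lay far above all 3 monocultured ones. IL12A, the partner chain of IL-12, was not called (adjusted p = 0.904). Its mean was 0.83 CPM in distal and 0.79 CPM in monocultured libraries. IL27, the partner of EBI3 in IL-27, did not pass the filter, with 15 counted pairs over all 9 libraries. Outside this family, IL6, a cytokine of the acute phase, was at 17.6, 19.3 and 22.6 CPM in distal and 0.208, 0.0711 and 0 CPM in monocultured libraries (log2 fold change 7.65 ± 0.31 SE, adjusted p = 2.47e-10). CSF3, the growth factor of neutrophils, was at 90.3, 91.0 and 92.8 CPM in distal and 4.51, 4.27 and 2.77 CPM in monocultured libraries (log2 fold change 4.58 ± 0.14 SE, adjusted p = 2.31e-11). IL36G, of the interleukin-1 family, rose by 5.54. Of 25 measured cytokines and antagonists, 14 rose, 4 fell and 7 were not called, with a median log2 fold change of 1.11. The fallen ones included CSF1, the growth factor that sustains macrophages, at 301, 259.9 and 319 CPM in distal and 2230, 2140 and 1934 CPM in monocultured libraries (log2 fold change -2.84 ± 0.11 SE, adjusted p = 1.12e-10), and IL1RN, the antagonist of interleukin-1, at 469, 489.5 and 513 CPM in distal and 1059, 1075 and 1062 CPM in monocultured libraries (log2 fold change -1.12 ± 0.07 SE, adjusted p = 2.23e-08). IL1B, the ligand it opposes, went the other way, at 14394, 15376 and 15026 CPM in distal and 6145, 6578 and 6212 CPM in monocultured libraries (log2 fold change 1.24 ± 0.06 SE, adjusted p = 2.15e-09).

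Of 16 measured chemokines 13 rose, 0 fell and 3 were not called (median log2 fold change 1.11), against 20.7% of all genes rising. Another 9 members of the list, among them CXCL9, CXCL10, CXCL11 and CCL3, did not pass the filter. CCL13, counted as risen, had means of 0.96 CPM in distal and 0 CPM in monocultured libraries. It passed the filter only through the cocultured groups, where it is higher. CCL1, a ligand of CCR8, was at 66.9, 63.7 and 79.5 CPM in distal and 0.624, 0.498 and 0.756 CPM in monocultured libraries (log2 fold change 6.78 ± 0.17 SE, adjusted p = 5.14e-12). CXCL1, an attractant of neutrophils through CXCR2, was at 442, 436 and 473 CPM in distal and 60.6, 49.6 and 58.4 CPM in monocultured libraries (log2 fold change 3.00 ± 0.09 SE, adjusted p = 2.33e-11). Others of that group rose as well, CXCL2 by 2.19, CXCL3 by 1.18 and CXCL5 by 1.83. CXCL8, interleukin-8, was at 10103, 11977 and 10215 CPM in distal and 4722, 5014 and 5540 CPM in monocultured libraries (log2 fold change 1.08 ± 0.11 SE, adjusted p = 2.18e-06). In each of these the lowest distal library was above the highest monocultured one. CXCL1, CXCL2 and CXCL3 are close copies of one another, and the pairs shared between them were not counted, so their levels are uncertain.

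**Figure D3:**
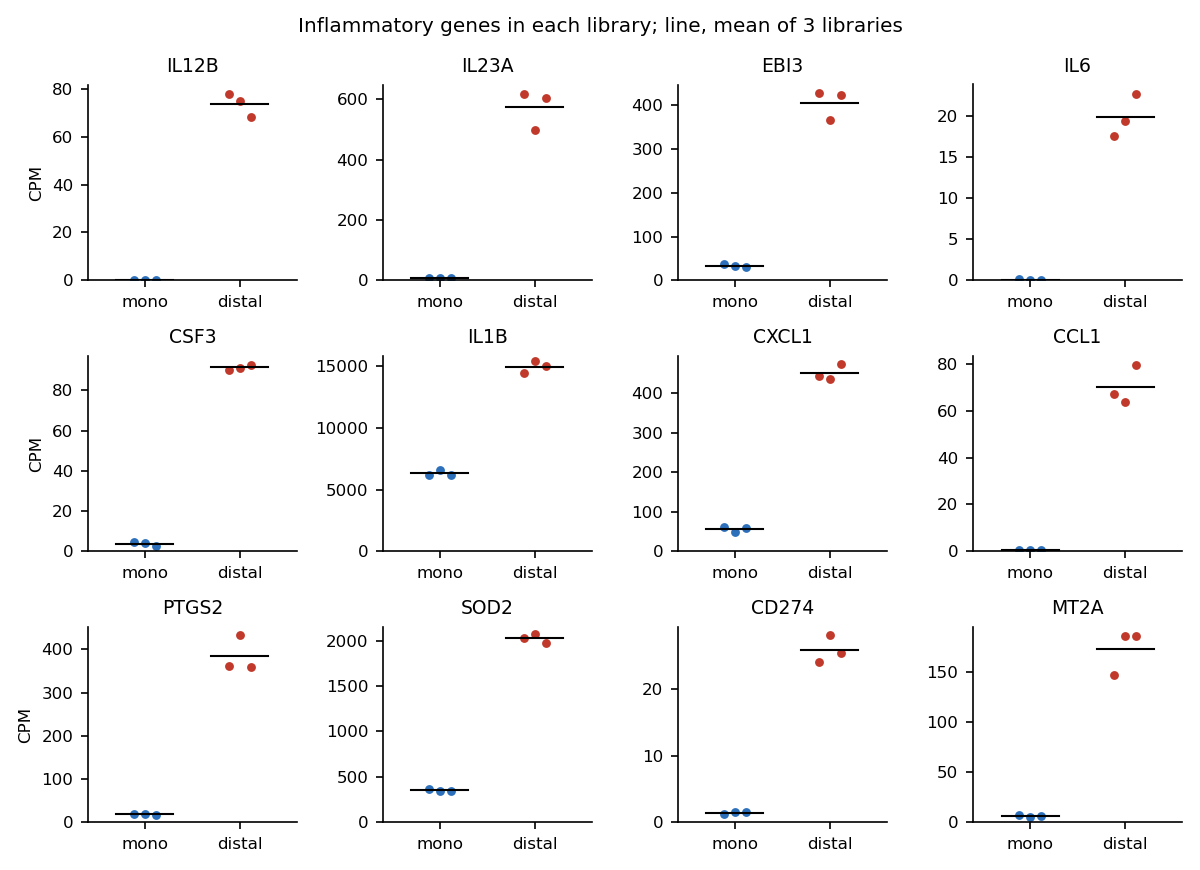
Level of 12 inflammatory genes in each monocultured (blue) and distal (red) library in CPM, with the mean of 3 libraries as a line. All 3 distal libraries were above all 3 monocultured ones for each gene.

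The promoters of these signals were read for the kappaB motif (3 G, 2 bases of any kind, 3 T and 2 C), the kind of sequence that NF-kappaB dimers bind, on both strands of RefSeq promoter windows (GRCh38.p14, 250 bases before to 50 after the start of a gene). The windows matched 10544 of the 15427 genes tested. The motif was in 1.92% of all promoters of the table, in 2.20% of those of genes tested, in 2.73% of those of risen genes (3.74% of those at least 2-fold higher) and in 1.76% of those of fallen genes. It was in 6 of 12 matched chemokines, 2 of 18 matched cytokines and 6 of 24 matched members of the NF-kappaB list. Among 22 matched type I interferon-stimulated genes, described below, 2 held it. The NF-kappaB list includes genes chosen as targets, so its share is no result about it. The AP-1 motif (TGA and TCA around 1 free base) was in 3 of the 12 chemokines, 6 of the 18 cytokines and 2 of the 24. Its share over genes tested was 4.71%. Of the 43 matched risen members of the chemokine, cytokine and NF-kappaB lists, 13 held the kappaB motif. A match is a description of the letters and not a measured site. The 6 of these 13 with the largest rises are printed below, 80 bases each in the direction of the gene, to show how near the start the motif lies. Capitals mark the motif (in REL it reads on the opposite strand).
IL6, chr7:22727092-22727171, plus strand: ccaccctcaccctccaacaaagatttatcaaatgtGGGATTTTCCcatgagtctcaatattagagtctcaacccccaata
NFKBIZ, chr3:101827740-101827819, plus strand: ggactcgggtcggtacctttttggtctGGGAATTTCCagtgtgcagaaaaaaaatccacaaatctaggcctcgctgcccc
CXCL1, chr4:73869279-73869358, plus strand: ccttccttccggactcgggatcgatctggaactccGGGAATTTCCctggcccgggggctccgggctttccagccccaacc
CXCL2, chr4:74099229-74099308, minus strand: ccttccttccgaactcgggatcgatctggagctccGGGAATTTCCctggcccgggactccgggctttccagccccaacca
REL, chr2:60881493-60881572, plus strand: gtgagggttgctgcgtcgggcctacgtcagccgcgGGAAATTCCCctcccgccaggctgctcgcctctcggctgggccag
CXCL5, chr4:73998724-73998803, minus strand: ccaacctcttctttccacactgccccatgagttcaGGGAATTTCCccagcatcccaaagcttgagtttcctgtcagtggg
The motif began 79, 78 and 91 bases before the start in CXCL1, CXCL2 and CXCL5, 73 in IL6, 46 in REL and 223 in NFKBIZ. The windows of CXCL1 and CXCL2 are near-identical, as the genes are. That of CXCL3, not printed, is close to them, and that of CXCL6, not printed, is close to that of CXCL5. The 6 chemokine matches are therefore not 6 independent ones.

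Of 26 measured NF-kappaB subunits, inhibitors and targets, 21 rose, 1 fell and 4 were not called, with a median of 0.84. Among the targets, TNFAIP6, a secreted binder of hyaluronan, was at 37.5, 46.9 and 38.4 CPM in distal and 2.22, 1.56 and 2.20 CPM in monocultured libraries (log2 fold change 4.35 ± 0.17 SE, adjusted p = 1.88e-10). NFKBIZ, a nuclear IkappaB protein, was at 304, 350.0 and 296 CPM in distal and 23.9, 19.3 and 23.1 CPM in monocultured libraries (log2 fold change 3.84 ± 0.12 SE, adjusted p = 3.69e-11), and the subunit REL rose by 2.16. SOD2, the mitochondrial superoxide dismutase, was at 2031, 2068 and 1970 CPM in distal and 367, 347 and 346 CPM in monocultured libraries (log2 fold change 2.52 ± 0.07 SE, adjusted p = 1.56e-11). The exception was the inhibitor NFKBIE, which fell by 0.45. Of 14 measured prostaglandin and leukotriene genes 6 rose and 5 fell. PTGS2, the inducible cyclooxygenase, was at 362, 432 and 358 CPM in distal and 18.3, 20.6 and 17.9 CPM in monocultured libraries (log2 fold change 4.34 ± 0.13 SE, adjusted p = 2.43e-11), and PTGS1, the constitutive one, at 272, 273 and 297 CPM in distal and 908, 919 and 873 CPM in monocultured libraries (log2 fold change -1.68 ± 0.08 SE, adjusted p = 7.16e-10). The cyclooxygenases thus moved in opposite directions. PTGIR, the prostacyclin receptor, and ALOX5AP, which feeds leukotriene synthesis, rose by 2.31 and 1.67, and LTA4H, which makes leukotriene B4, fell by 1.16.

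Of 20 measured STAT factors and feedback genes, 11 rose, 4 fell and 5 were not called (median 0.34). STAT4, which transmits IL-12 signals, had 10.8, 11.6 and 12.5 CPM in distal and 0, 0 and 0 CPM in monocultured libraries, a level at least 173-fold higher when the monocultured group is set to a floor of 3 counts in all. SOCS3, a feedback inhibitor of IL-6 signalling, was at 181, 132 and 173 CPM in distal and 38.1, 27.6 and 30.3 CPM in monocultured libraries (log2 fold change 2.34 ± 0.16 SE, adjusted p = 4.49e-08). The kinase PIM2 and the repressor BCL6 rose by 1.97 and 1.61, while the kinase PIM1 and the receptor IL6R fell by 1.01 and 1.05. Immediate early genes were mixed, with 14 of 26 rising and 4 falling. NR4A2, an orphan nuclear receptor, rose by 3.40 and EGR3 by 1.62, while EGR2 fell by 1.96 and ATF3 fell too. The list includes genes known to respond when cells are dissociated with enzymes, and the part of that step in these values was not tested.

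Genes of mature dendritic cells, which present antigen and attract T cells, mostly rose: 13 of 18 measured rose and 2 fell (median 0.77). CCR7, the receptor that guides such cells to lymph nodes, was at 68.5, 67.6 and 68.4 CPM in distal and 11.8, 10.2 and 9.13 CPM in monocultured libraries (log2 fold change 2.72 ± 0.12 SE, adjusted p = 3.60e-10), and its ligand CCL19, at 5.14, 5.60 and 4.87 CPM in distal and 0, 0 and 0 CPM in monocultured libraries, was at least 76.8-fold higher on the same floor of 3 counts. The costimulatory ligand CD80 was at 17.6, 23.3 and 16.5 CPM in distal and 0.901, 1.07 and 1.13 CPM in monocultured libraries (log2 fold change 4.19 ± 0.22 SE, adjusted p = 2.82e-09), the receptor CD40 rose by 1.69 and IL15RA, which presents interleukin-15, by 2.33. LAMP3, a lysosomal protein of mature dendritic cells, had 9.05, 12.4 and 11.1 CPM in distal and 0, 0.0711 and 0.0630 CPM in monocultured libraries, a ratio of 241 (95% exact interval 66.2 to 1992). The 2 falls, in the actin bundler FSCN1 and in CD1A, were small. That of FSCN1 was lost on leaving out any library but monocultured replicate 3 (adjusted p 0.0663 to 0.196) and that of CD1A on leaving out any but distal replicate 1 (adjusted p 0.0504 to 0.163). Of 16 measured checkpoint ligands and immunoregulatory enzymes 8 rose and 5 fell. IDO1, which degrades tryptophan, was at 39.6, 42.4 and 42.0 CPM in distal and 0, 0.142 and 0 CPM in monocultured libraries (ratio 917 (95% exact interval 254 to 7578)). CD274, the ligand PD-L1, was at 24.0, 28.0 and 25.4 CPM in distal and 1.32, 1.56 and 1.51 CPM in monocultured libraries (log2 fold change 4.13 ± 0.18 SE, adjusted p = 3.55e-10), and adenosine deaminase ADA rose by 2.38. HAVCR2 (TIM-3), at 45.1, 46.2 and 43.3 CPM in distal and 152, 174 and 156 CPM in monocultured libraries, fell by 1.84, and its ligand LGALS9 by 0.89.

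Interferon-related lists did not move as one. Of 30 measured type I interferon-stimulated genes 18 fell, 3 rose and 9 were not called (median -0.50, against 21.7% of all genes falling). IFI6 was at 296, 234 and 276 CPM in distal and 813, 579 and 630.5 CPM in monocultured libraries (log2 fold change -1.33 ± 0.14 SE, adjusted p = 4.34e-06), OAS3, a sensor of double-stranded RNA, fell by 0.95, and IFIT1 fell by 1.51. ISG20, an exonuclease, and TRIM22 rose by 2.17 and 0.90. Of 13 measured genes of the interferon gamma response and MHC class II, 4 rose and 3 fell. Another 9 members of that list did not pass the filter. Among these were HLA-DRA, HLA-DPA1, HLA-DPB1, HLA-DQA1, HLA-DMA and HLA-DMB, with 0 to 22 counted pairs over all 9 libraries. The list therefore says little of MHC class II. The transcription factor IRF8 was at 86.7, 84.6 and 86.9 CPM in distal and 24.1, 25.1 and 24.9 CPM in monocultured libraries (log2 fold change 1.80 ± 0.09 SE, adjusted p = 8.79e-10), and the GTPases GBP2 and GBP4 rose by 2.52 and 1.22. WARS1 fell by 0.86 and FCGR1A, which has near-identical copies, by 1.01. The motif of the interferon-stimulated response element (TTTC on both sides of 2 free bases, read on both strands) was in 14 of 22 matched type I promoters, against 2.95% of those of genes tested and 3.65% of all promoters, and in 0 of 12 chemokine promoters.

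Metallothioneins, small proteins that bind zinc and copper, and zinc transporters rose in 8 of 10 measured members (median 2.33). MT2A was at 147, 186 and 186 CPM in distal and 7.63, 5.19 and 6.36 CPM in monocultured libraries (log2 fold change 4.75 ± 0.17 SE, adjusted p = 7.58e-11), and MT1F rose by 2.44. The zinc importers SLC39A8 and SLC39A14 rose by 2.21 and 1.12, while the exporter SLC30A1 fell by 0.35, a call lost without distal replicate 1 (adjusted p = 0.0848), distal replicate 3 (0.0604) or monocultured replicate 2 (0.0845). Metallothionein genes are close copies of one another, so their separate levels are uncertain. Among antioxidant, iron and phagocyte oxidase genes 7 of 26 rose and 12 fell. SLC25A37 (mitoferrin), which imports iron into mitochondria, was at 522, 491 and 502 CPM in distal and 47.8, 51.3 and 48.2 CPM in monocultured libraries (log2 fold change 3.36 ± 0.08 SE, adjusted p = 3.18e-12). HMOX1, which breaks down haem, was at 89.3, 68.9 and 94.0 CPM in distal and 499, 469 and 468 CPM in monocultured libraries (log2 fold change -2.51 ± 0.14 SE, adjusted p = 5.30e-09), and GCLC, which starts glutathione synthesis, fell by 1.32.

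Of 27 measured glycolysis and hypoxia-inducible genes 17 rose and 3 fell (median 0.47), while of 36 oxidative phosphorylation and citrate cycle genes 27 fell and 2 rose (median -0.43). The glucose transporter SLC2A1 was at 738, 665 and 770.2 CPM in distal and 279, 252 and 245 CPM in monocultured libraries (log2 fold change 1.49 ± 0.09 SE, adjusted p = 1.39e-08), and BNIP3, a mitophagy receptor induced by hypoxia, at 108, 109 and 109.7 CPM in distal and 26.5, 25.9 and 31.0 CPM in monocultured libraries (log2 fold change 1.97 ± 0.09 SE, adjusted p = 9.44e-10). The glycolytic enzymes ALDOC and PFKFB3 rose by 1.48 and 0.91, and PKM and HK2 fell by 0.50 and 0.25, the latter call being lost with upper-quartile scaling (adjusted p = 0.057). COX5B, a subunit of cytochrome oxidase, was at 74.8, 50.6 and 73.9 CPM in distal and 271, 191 and 244 CPM in monocultured libraries (log2 fold change -1.82 ± 0.19 SE, adjusted p = 3.28e-06), with distal replicate 2 and monocultured replicate 2 lowest in their groups. ATP5F1A, of the ATP synthase, fell by 0.77 and IDH2, of the citrate cycle, by 0.93. NDUFV2 and CS rose by 1.88 and 0.26, and the call of CS was lost without distal replicate 1 or 3 or monocultured replicate 1 or 3 (adjusted p = 0.055, 0.0606, 0.0764 and 0.0731). Among growth and angiogenic factors 12 of 23 rose and 5 fell (median 0.60). FGF2 was at 22.3, 24.0 and 23.1 CPM in distal and 2.01, 1.85 and 1.20 CPM in monocultured libraries (log2 fold change 3.78 ± 0.17 SE, adjusted p = 4.25e-10), and THBS1, a matrix protein that restrains vessel growth, rose by 3.52. AREG, a ligand of EGFR, and GDF15 fell by 1.97 and 2.65.

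**Figure D4:**
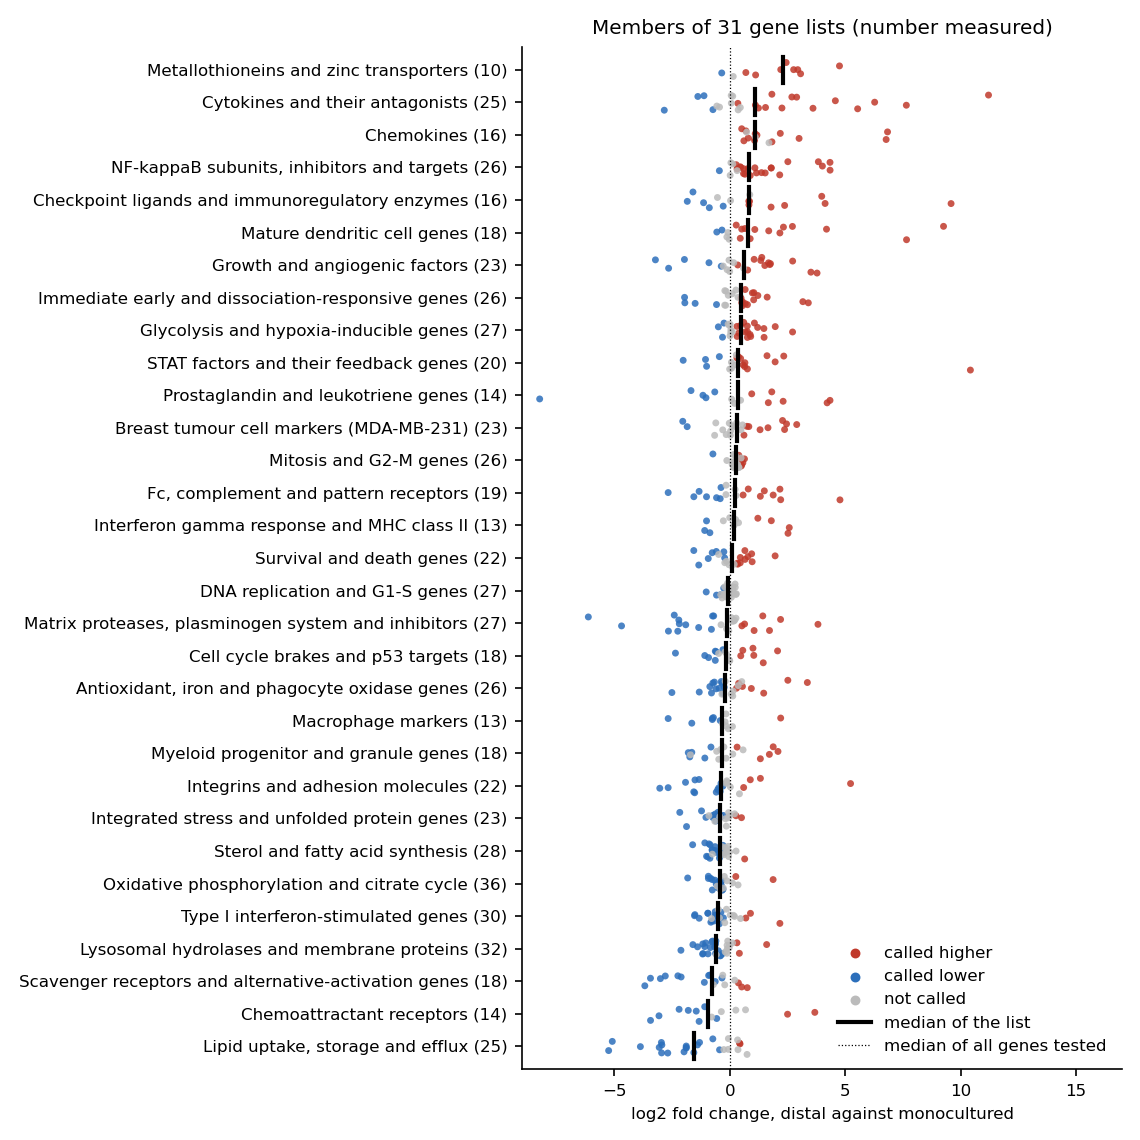
Log2 fold change of every measured member of 31 gene lists, distal against monocultured, with the list's median as a bar and the median of all genes as a dotted line; red marks members called higher, blue lower and grey not called. Medians run from 2.33 for metallothioneins and zinc transporters to -1.56 for lipid uptake, storage and efflux.

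Most genes of lipid handling fell. Of 25 measured genes of lipid uptake, storage and efflux 17 fell, 2 rose and 6 were not called, with a median log2 fold change of -1.56 against 0.01 over all genes. FABP4, a fatty acid carrier, was at 1.23, 1.15 and 1.28 CPM in distal and 39.5, 55.0 and 46.0 CPM in monocultured libraries (log2 fold change -5.25 ± 0.20 SE, adjusted p = 1.12e-10). NR1H3, the receptor LXRα, was at 27.3, 26.2 and 28.1 CPM in distal and 184, 176 and 167 CPM in monocultured libraries (log2 fold change -2.69 ± 0.09 SE, adjusted p = 4.40e-11), and LIPA, the lysosomal lipase, at 61.9, 78.1 and 63.8 CPM in distal and 483, 556 and 529 CPM in monocultured libraries (log2 fold change -2.94 ± 0.12 SE, adjusted p = 2.47e-10). FBP1, an enzyme of glucose synthesis in this list, fell by 5.09. The rises of RXRA and MYLIP (0.44 and 0.42) were both lost without distal replicate 1 (adjusted p = 0.0609 and 0.0721), monocultured replicate 2 (0.082 and 0.161) or monocultured replicate 3 (0.0784 and 0.0839), that of RXRA also without distal replicate 3 (0.0761) and that of MYLIP without distal replicate 2 (0.116). Sterol and fatty acid synthesis fell in 17 of 28 measured members and rose in 1 (median -0.43). SCD, which desaturates fatty acids, was at 294, 329 and 327 CPM in distal and 907, 1001 and 992 CPM in monocultured libraries (log2 fold change -1.61 ± 0.08 SE, adjusted p = 1.21e-09). INSIG1 and SQLE fell by 0.95 and 0.64, and DHCR7 rose by 0.65.

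Of 32 measured lysosomal genes 20 fell, 3 rose and 9 were not called (median -0.59). The protease CTSL was at 404, 366 and 423 CPM in distal and 1772, 1665 and 1742 CPM in monocultured libraries (log2 fold change -2.12 ± 0.09 SE, adjusted p = 3.60e-10). The ceramidase ASAH1 and the cholesterol carriers NPC2 and NPC1 fell by 1.40, 1.16 and 0.95. LGMN, legumain, went against the rest, at 11.7, 14.5 and 13.3 CPM in distal and 4.85, 3.63 and 4.54 CPM in monocultured libraries (adjusted p = 8.61e-07), and CTSK rose by 0.42, a call lost without distal replicate 1 or 2 or monocultured replicate 1 or 2 (adjusted p 0.0657 to 0.109). The count of 3 rises was 1 without distal replicate 2, monocultured replicate 1 or monocultured replicate 2. The E-box TCACGTGA, read on both strands and the centre of the motif known for lysosomal genes, was in 4 of 20 matched lysosomal promoters, against 1.82% of those of genes tested and 1.04% of all promoters. Scavenger receptors and genes of alternative activation fell in 11 of 18 and rose in 3 (median -0.79). MSR1, the class A scavenger receptor, was at 3.57, 4.18 and 4.20 CPM in distal and 49.0, 51.1 and 53.9 CPM in monocultured libraries (log2 fold change -3.68 ± 0.14 SE, adjusted p = 1.12e-10), CD163, the haemoglobin receptor, at 2.13, 2.29 and 1.76 CPM in distal and 22.5, 21.2 and 23.3 CPM in monocultured libraries (log2 fold change -3.44 ± 0.17 SE, adjusted p = 1.58e-09), and MERTK, a receptor for dying cells, at 7.27, 5.53 and 6.27 CPM in distal and 47.2, 54.3 and 52.0 CPM in monocultured libraries (log2 fold change -3.01 ± 0.14 SE, adjusted p = 8.79e-10). In all of these the 3 distal libraries stood far below the monocultured ones. TGM2 fell by 2.25, and IL10RA rose by 0.76.

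Receptors at the cell surface changed in both directions. Of 19 Fc, complement and pattern receptor genes 8 rose and 7 fell (median 0.23). TLR8, a sensor of RNA in endosomes, was at 27.5, 37.5 and 31.6 CPM in distal and 0.624, 0.996 and 1.83 CPM in monocultured libraries (log2 fold change 4.78 ± 0.26 SE, adjusted p = 3.69e-09). ITGAM (CD11b), the complement receptor chain, was at 58.8, 52.6 and 53.9 CPM in distal and 357, 360.3 and 335 CPM in monocultured libraries (log2 fold change -2.67 ± 0.09 SE, adjusted p = 3.03e-11). Of 14 chemoattractant receptors 8 fell and 2 rose (median -0.94): CCR1 and C5AR1 fell by 2.20 and 1.33, whereas PTAFR, the receptor for platelet-activating factor, and ACKR3 rose by 3.69 and 2.50. Of 22 integrins and adhesion molecules 13 fell and 4 rose (median -0.40). ITGA1, the collagen-binding α1 chain, was at 234, 269.8 and 227 CPM in distal and 6.24, 6.61 and 6.55 CPM in monocultured libraries (log2 fold change 5.23 ± 0.15 SE, adjusted p = 1.56e-11), in contrast to the laminin-binding chain ITGA3 at 19.0, 16.7 and 18.9 CPM in distal and 162, 147 and 139 CPM in monocultured libraries (log2 fold change -3.03 ± 0.11 SE, adjusted p = 1.12e-10). ITGB7 fell by 1.92, and CD44, a receptor for hyaluronan, rose by 0.89. Matrix proteases and their inhibitors fell in 12 of 27 and rose in 7 (median -0.14). The gelatinase MMP9 was at 1524, 1269 and 1533 CPM in distal and 5863, 5556 and 4830 CPM in monocultured libraries (log2 fold change -1.91 ± 0.12 SE, adjusted p = 2.42e-08). The inhibitor TIMP3 fell by 2.66 and the protease MMP19 by 2.21. PLAT, tissue plasminogen activator, and the inhibitor SERPINE2 rose by 3.82 and 1.72.

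Gene names of clone type (those with a dot, and LOC or RP clone names) were left out of the rankings below. The 15 largest rises were IL12B, STAT4, SERPINB7, IDO1, RIPOR2, CCL19, LAMP3, IL6, C1QTNF1, CCL1, IL23A, SEMA6D, CPXM1, IL36G and RNF144B. SERPINB7, a serine protease inhibitor, had 8.23, 7.36 and 7.79 CPM in distal and 0, 0 and 0 CPM in monocultured libraries, at least 115-fold higher on that floor of 3 counts. RIPOR2 had 21.8, 23.0 and 22.1 CPM in distal and 0, 0 and 0.0630 CPM in monocultured libraries, a ratio of 990.1 (95% exact interval 177 to 39145). C1QTNF1 rose by 6.88, the semaphorin SEMA6D by 6.01, CPXM1 by 5.75 and the ubiquitin ligase RNF144B by 5.36. The 15 largest falls were of varied function. ADAMTS8 (chromosome 11, 130404923 to 130428609, minus strand, GRCh38), a secreted metalloprotease, was at 0.754, 0.810 and 0.973 CPM in distal and 61.4, 58.7 and 60.5 CPM in monocultured libraries (log2 fold change -6.13 ± 0.27 SE, adjusted p = 4.61e-10). Its relative ADAMTS15 fell by 4.69. HSPB7, a small heat shock protein, was at 2.26, 1.15 and 1.83 CPM in distal and 51.9, 51.5 and 52.0 CPM in monocultured libraries (log2 fold change -4.89 ± 0.18 SE, adjusted p = 9.11e-11), and CD300LB, an activating receptor of myeloid cells, at 2.74, 2.36 and 4.02 CPM in distal and 60.8, 53.5 and 52.9 CPM in monocultured libraries (log2 fold change -4.18 ± 0.21 SE, adjusted p = 1.79e-09). FA2H, which hydroxylates fatty acids, fell by 4.32 and the potassium channel KCNJ1 by 4.39. MTUS1, TRIM54, DUSP13 and HES2 fell by 4.99, 4.38, 4.34 and 4.35, and ATP1B4 and SNCB by 4.61 and 4.10. PNOC fell by 4.28, and in it distal replicate 1 was at 1.58 CPM and the others at 0.27 and 0.43, all far below the 13.9 to 15.2 CPM of monoculture.

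**Figure D5:**
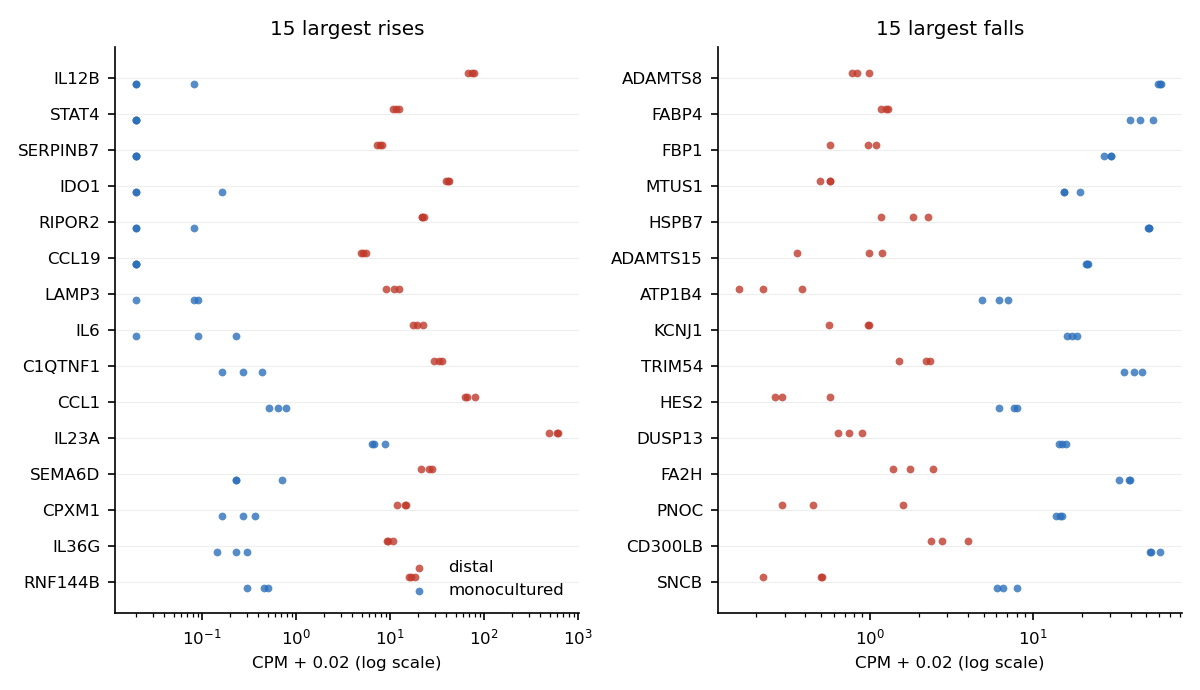
Level in each library (CPM plus 0.02, log scale) of the 15 called genes that rose most and the 15 that fell most, the mean of the higher group being 5 CPM or more. Gene names of clone type were left out. For every gene the 3 distal (red) and the 3 monocultured libraries (blue) do not overlap; points at the left edge of the rises are libraries at 0 counts.

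By difference in CPM, the largest rises were IL1B, CXCL8, FTH1, SOD2, EEF1A1, TMSB4X, MT-ND1 and MFSD2A, and the largest falls CAP1, MMP9, FTL, CHI3L1, ACTB, CSF1, TSC22D1 and ACTG1. CHI3L1, a chitinase-like protein secreted by macrophages, was at 1748, 1639 and 1801 CPM in distal and 4464, 4082 and 4000 CPM in monocultured libraries (log2 fold change -1.27 ± 0.07 SE, adjusted p = 5.30e-09), and TSC22D1, a transcriptional regulator, at 620.1, 633 and 636 CPM in distal and 2276, 2258 and 2316 CPM in monocultured libraries (log2 fold change -1.86 ± 0.07 SE, adjusted p = 9.11e-11). MFSD2A, a lipid transporter, was at 1594, 1506 and 1657 CPM in distal and 806, 770.0 and 737 CPM in monocultured libraries (log2 fold change 1.04 ± 0.07 SE, adjusted p = 5.61e-08), all 3 distal libraries again apart. CAP1, which turns over actin, fell by 0.62. The ferritin chains went opposite ways: FTL was at 4023, 4406 and 4567 CPM in distal and 7873, 8549 and 7232 CPM in monocultured libraries (log2 fold change -0.86 ± 0.08 SE, adjusted p = 7.44e-07) and FTH1 at 6320, 5849 and 6694 CPM in distal and 4622, 4455 and 3820 CPM in monocultured libraries (log2 fold change 0.55 ± 0.17 SE, adjusted p = 0.0174). FTH1 lost its call without distal replicate 3 (adjusted p = 0.0595) or monocultured replicate 3 (0.0697), and less than 50% of its exonic bases are free of other genes. EEF1A1, TMSB4X, MT-ND1, ACTB and ACTG1, with log2 fold changes of 0.28, 0.93, 0.44, -0.55 and -0.51, have many copies in the genome, as have the ferritin genes, and their levels are uncertain.

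Few genes of DNA replication were called. Of 27 measured DNA replication and G1-S genes 0 rose and 4 fell (median -0.09), against 42.4% called in either direction over all genes. With each library's GC trend removed 2 rose and 7 fell, and 1 rose without monocultured replicate 1. RRM2, which makes deoxynucleotides, was at 24.8, 27.1 and 22.8 CPM in distal and 51.7, 49.4 and 50.6 CPM in monocultured libraries (log2 fold change -1.02 ± 0.10 SE, adjusted p = 2.59e-06), while FEN1, GINS1 and MCM5 fell by 0.41, 0.58 and 0.26; the call of MCM5 was lost when any single library but monocultured replicate 3 was left out (adjusted p 0.059 to 0.151). Of 26 mitosis genes 8 rose, 1 fell and 17 were not called (median 0.29). The count of 8 rises was 3 without distal replicate 2, 2 without monocultured replicate 1 and 2 without both, but 8 with the GC trend of each library removed. MKI67, the proliferation marker Ki-67, was at 89.9, 99.7 and 89.9 CPM in distal and 61.9, 67.3 and 67.4 CPM in monocultured libraries (log2 fold change 0.51 ± 0.11 SE, adjusted p = 0.00247), PLK1 rose by 0.50 and TOP2A by 0.49, and AURKA fell by 0.73. The call of TOP2A was lost without distal replicate 2 or monocultured replicate 1 (adjusted p = 0.0512 and 0.0585). Of 18 cell cycle brakes and p53 targets 6 rose and 7 fell. MYC was at 98.2, 97.1 and 102 CPM in distal and 56.0, 48.4 and 44.1 CPM in monocultured libraries (log2 fold change 1.00 ± 0.11 SE, adjusted p = 3.44e-06), GADD45B and CCNG2 rose by 2.07 and 1.04, and SESN1 fell by 0.92. Of 18 myeloid progenitor and granule genes 5 rose and 5 fell: CD38 rose by 1.72, and FLT3, a progenitor receptor, and SPN fell by 1.73 and 0.82.

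Of 22 measured survival and death genes 10 rose and 7 fell (median 0.08), and without distal replicate 3 only 4 falls were left. CASP1, the protease that activates IL-1β, was at 66.2, 76.0 and 63.3 CPM in distal and 15.5, 18.8 and 18.2 CPM in monocultured libraries (log2 fold change 1.97 ± 0.12 SE, adjusted p = 1.82e-08). The death receptors TNFRSF10B and TNFRSF10A, both for TRAIL, rose by 0.95 and fell by 1.34, and MLKL, the effector of necroptosis, fell by 1.56. Of 23 integrated stress and unfolded protein genes 12 fell and 2 rose (median -0.43). PSAT1, which makes serine, was at 8.78, 9.18 and 8.58 CPM in distal and 38.4, 48.4 and 32.5 CPM in monocultured libraries (log2 fold change -2.17 ± 0.15 SE, adjusted p = 6.15e-08). PHGDH, also of serine synthesis, CHAC1, which degrades glutathione, and the chaperone CALR fell by 1.23, 1.87 and 1.03. PPP1R15A and XBP1 rose by 0.51 and 0.27. The call of PPP1R15A was lost without distal replicate 1 or 3 or monocultured replicate 2 or 3 (adjusted p 0.0579 to 0.0913), and that of XBP1 without distal replicate 2 or 3 or monocultured replicate 2 or 3 (adjusted p 0.0583 to 0.135).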

How the data were processed

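The authors deposited raw counts, 1 table of 3 libraries for each group. Per the file headers, featureCounts 1.6.3 assigned read pairs to the exons of each gene name (GENCODE release 36), without strand and leaving out pairs that map to several places or overlap several genes. Per the submitters' processing notes, Trim Galore 0.6.5, STAR 2.7.6a, GRCh38.p13, R 4.1.3 and DESeq2 1.34.0 were used. Of the table letters H, L and M, L was taken as distal and M as monocultured, a key that no label gives in words. Of the 61180 gene names, 2304 lie on more than 1 sequence of the annotation, and such genes, like genes overlapped by others, lose pairs.

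Genes were filtered (filterByExpr, minimum count 10, minimum total 15), scaled (TMM) and tested with edgeR 4.0.16 in R 4.3.3 by its robust quasi-likelihood test with all 9 libraries in the fit, 1 coefficient for each group and 6 residual degrees of freedom (coefficient of biological variation 11.6%). Gene lists are described by counts and medians, without set tests. The comparison, its gene lists and the rule for named genes were chosen with earlier results of these data known. That rule took the 15 largest rises and falls (5 CPM or more in the mean of the higher group, no overlap of replicates), the 8 largest CPM changes each way, up to 4 members per list with the smallest p and up to 2 called the other way, ERBB2 with 4 tumour markers, and the genes whose promoters are printed; a few genes it named are not reported here. Gene names of clone type were left out of the rankings by fold change and by CPM. Replicate numbers were not used to pair the samples. Deviations of same-numbered libraries correlated at 0.18, 0.14 and -0.09, and those of the other pairs at -0.26 to 0.13. These values cannot settle whether the numbers pair, since the deviations also follow the GC trend. Alternatives were other scalings, tools and filters, a replicate block, a GC correction and leaving out libraries. The procedure was tested on simulated data. It recovered 25 of 67 changes of 1.5-fold, 47 of 64 of 2-fold and 62 of 65 of 4-fold. Of its 140 calls, 6 were of unchanged genes. Far fewer genes were changed there than were called here, so scaling and error rate at the present extent were not tested. Figures were made with Python 3.11.15 and matplotlib 3.10.9.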

Additional observations from a re-analysis of the deposited data

How the results depend on the processing

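No call changed direction under any alternative, and the counts of 3201 risen and 3344 fallen genes stayed within 1.5 times in all but 1: against a 1.5-fold change (glmTreat, which tests another question) 1193 rose and 1198 fell. Leaving out each library in turn gave 2686 to 2964 rises and 2776 to 3063 falls, with fewer samples in the fit. The DESeq2 Wald test gave 3166 and 3296, limma voom 3185 and 3388, no filter 3347 and 3457, and the fit of the 6 libraries alone 3517 and 3540. A filter of 50 counts in 3 libraries gave 2707 and 2746 and, with fewer genes tested, 774 rises of at least 2-fold against 1368. Upper-quartile factors gave 3793 and 2834 and raised the median log2 fold change of all genes to 0.08. The replicate block, although no pairing by number was established, gave 3252 and 3461, and 3817 and 4533 with the GC trend removed. With that trend removed alone the counts were 3739 and 4388, and the cause was not tested. The removal also takes out differences between the groups that follow GC content. Removing the GC trend turned the DNA replication list from 0 rises and 4 falls to 2 and 7, and the block with that removal turned the macrophage markers from 1 rise and 6 falls to 2 and 10. Chosen after seeing the data were a restriction to countable genes (3183 and 3234) and leaving out distal replicate 2 with monocultured replicate 1 (2556 and 2835). Without both libraries, calls lost included those of HK2, FEN1 and FTH1 (adjusted p = 0.0664, 0.0709 and 0.0915). The falls among glycolysis and hypoxia-inducible genes then went from 3 to 1, and the rises in sterol and fatty acid synthesis from 1 to 2. The log2 ratio of the summed macrophage markers ranged from -0.44 to -0.27 and that of the tumour markers from 0.54 to 0.68 over their alternatives. With 3 libraries a group, small changes are the least certain: the calls of FSCN1, MCM5 and CD1A were lost in 13, 11 and 11 alternatives.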
